A study of Mus musculus with 6 samples.

Results

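The genes described here encode the nucleolar factors that build ribosomes. They were taken by name, as 40 genes that transcribe, modify, cleave or package ribosomal RNA, and 37 of them were read from array probe sets whose gene symbol was that name and no other, of 20679 genes read in the same way. Fbl, Npm1 and Npm3 were measured only by probe sets that the annotation shared with another locus, and they were kept apart from the counts. Expression was compared between 3 arrays of cardiac progenitor cells (CPC) and 3 arrays of adult cardiomyocytes (Ctl), all from bi-transgenic mice. The CPC were described as arising from cardiomyocytes that dedifferentiated and divided during prolonged culture, an origin that was not tested here. The Ctl cells were freshly isolated from adult hearts, so time in culture and cell state cannot be told apart. According to the labels, cells were captured singly in a microfluidic device and their cDNA was amplified before hybridization to Affymetrix 430 2.0 arrays. The labels give neither the transgenes, the animals nor the number of cells behind each array, and the p-values therefore measure the spread between these 6 arrays, which may be technical.

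A ribosome begins in the nucleolus, where RNA polymerase I transcribes a long precursor of the ribosomal RNAs. Box C/D and box H/ACA particles, which are small nucleolar RNAs bound to a few core proteins, guide methylation and pseudouridylation of that precursor, and the small subunit processome cleaves it and assembles the small subunit. The PeBoW complex and a series of GTPases, helicases and methyltransferases then build the 60S subunit. The pathway is active in growing cells, and many of its genes are known targets of the transcription factor Myc, whose usual DNA site is the E-box CACGTG.

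The deposited values are log2 intensities on which a difference of 1 is a doubling of signal. The highest of the lower quartiles of the 6 arrays, 6.55, was taken as the level of background. Array medians ran from 7.32 to 7.47, and the correlation between arrays was 0.93 to 0.97 within Ctl, 0.79 to 0.86 within CPC and 0.68 to 0.81 between the groups. The labels of the cells were borne out for Ctl: the mean level of 9 cardiomyocyte markers was 13.54 to 13.64 on the Ctl arrays and 7.05 to 7.64 on the CPC arrays. All 9 fell, against 4.47% of all genes. The mean of 8 fibroblast markers was 9.35 to 9.81 in CPC and 7.75 to 8.64 in Ctl, with 2 of the 8 past the threshold (Col1a1 and Col1a2, both higher in CPC) and none at background on all arrays of a group, and of the other fibroblast markers Tcf21 differed by 2.09 and Pdgfra by −0.05. The mean of 7 smooth muscle and pericyte markers was 8.76 to 9.23 in CPC and 8.35 to 9.08 in Ctl. Of these Rgs5 fell by 3.59 (adjusted p = 0.0311), while Acta2, Tagln and Pdgfrb differed by 2.11, 2.46 and 0.83 without passing. These 3 had every CPC array above every Ctl array (42.9%, against 21.9% of all genes). Myh11 and Cspg4 differed by −0.19 and 0.11 with overlapping arrays. Cnn1 differed by 0.19, also with overlap, and was at background on all Ctl arrays and on 1 CPC array. Of 7 endothelial markers, at a mean of 7.31 to 7.58 in CPC and 7.18 to 8.37 in Ctl, none passed by limma and none did at an unadjusted p below 0.05. Of 7 macrophage and leukocyte markers, at 7.72 to 7.96 and 7.53 to 7.59, none passed by limma. Of these 2 were higher at an unadjusted p below 0.05 (28.6%, against 11.0% of all genes), and Itgam was at background on all arrays. The part of such cells in the results below was not tested. Of 7 cycling markers none passed in either direction by limma, and 1 was higher at an unadjusted p below 0.05. In amplified RNA of this kind, fewer cells of a type and less RNA per cell cannot be told apart.

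The nucleolar factors stood mostly higher in CPC than in cardiomyocytes, but only some of them did so on every array. By limma with Benjamini-Hochberg adjustment over all 45037 probe sets, 7 of the 37 genes (18.9%) rose and none fell, where 1.15% of all genes rose and 4.47% fell. At an unadjusted p below 0.05, 16 were higher (43.2%, against 11.0% of all genes) and 1 was lower (against 10.2% of all genes). The genes that rose were Grwd1, Nop2, Pa2g4, Nop56, Wdr75, Ncl and Tsr1, and they belong to the box C/D particle, the nucleolar phosphoproteins, the small subunit processome and the 60S pathway. The median log2 difference of the 37 genes was 1.04, beside 0.19 for all genes and 0.16 for the 12175 genes in the same range of mean level. The CPC mean was the higher one for 33 of the 37 (89.2%, against 68.1% of all genes), and the differences ran from −2.20 for Nop10 to 2.98 for Tsr1.

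**Figure D1:**
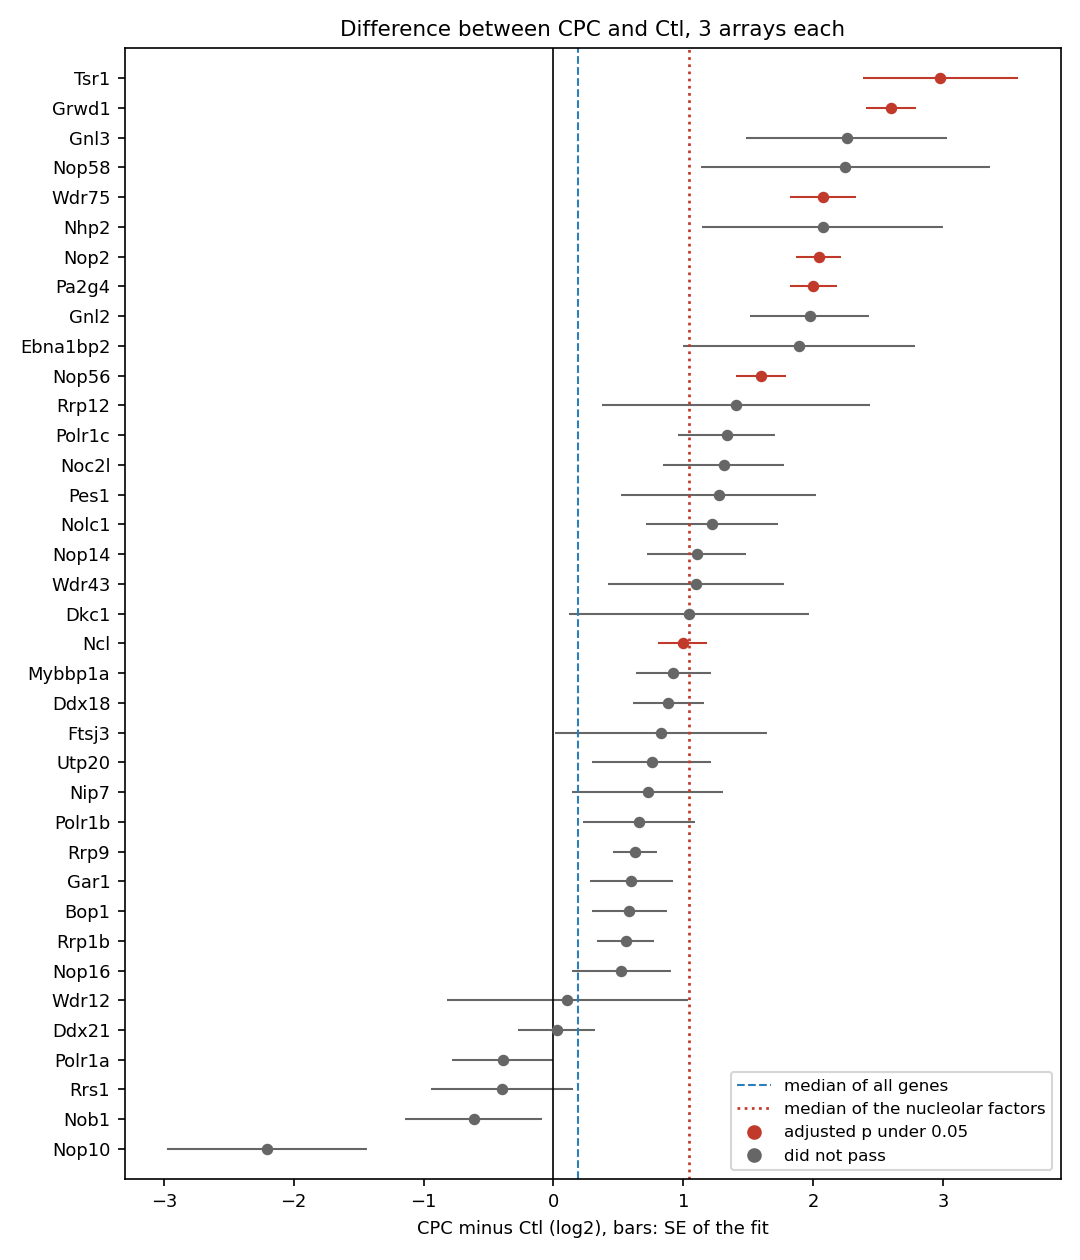
Log2 difference (CPC minus Ctl) of each of the 37 genes with its standard error, in order of size; the dashed line is the median of all genes and the dotted line that of the 37. The 7 genes past the threshold lie between 0.99 and 2.98, and Nop10 lies lowest, at −2.20.

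Myc, the transcription factor named above, stood on the log2 scale at 11.93, 12.07 and 12.00 on CPC arrays 1, 2 and 3 and at 7.13, 6.97 and 6.86 on the Ctl arrays. It was thus almost level within each group, and its difference of 5.01 ± 0.15 (SE) had an adjusted p of 0.000133 by limma. Because of that background, CACGTG was looked for in RefSeq promoters (GRCm38.p6), in the window from 250 bases before to 50 bases after each start. The motif reads the same on both strands. Of the 33 nucleolar factors found in the promoter table, 7 held it (21.2%), beside 16 of 86 other ribosome biogenesis genes (18.6%) and 8.09% of the 27025 genes of the table. Among the 7 genes that rose 3 held it, Grwd1, Nop2 and Tsr1, and among 26 genes that did not pass 4 did. These shares are descriptions without a test, and a match is not a binding site. The stretches around the motif are shown for all 7 genes, 5′ to 3′ on the strand of the gene with the motif in capitals, because they place the same letters in genes whose expression rose and in genes whose expression did not pass.
Grwd1, chr7:45830740-45830767 (−): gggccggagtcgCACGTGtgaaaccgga
Nop2, chr6:125131811-125131840 (+): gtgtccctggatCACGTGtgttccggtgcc
Tsr1, chr11:74898092-74898121 (+): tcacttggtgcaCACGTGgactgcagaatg
Mybbp1a, chr11:72441355-72441376 (+): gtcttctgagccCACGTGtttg
Pes1, chr11:3963965-3963994 (+): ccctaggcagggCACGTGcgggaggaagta
Utp20, chr10:88826765-88826789 (−): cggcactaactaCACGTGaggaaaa
Wdr43, chr17:71616220-71616249 (+): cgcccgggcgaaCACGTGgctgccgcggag

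The first 3 of these genes rose, and the last 4 did not pass. In 6 of the 7 the motif began after the start of transcription, at positions 35 in Grwd1, 25 in Tsr1, 41 in Mybbp1a, 3 in Pes1, 38 in Utp20 and 18 in Wdr43, whereas in Nop2 it began at position −60. Of 2349 promoter windows with the motif in the whole table, 13.2% had their first copy after the start. The motif was chosen for Myc, and this position was noticed after the sequences were read. Nop2, which was called under all alternative settings, is shown with the 250 bases before its start to give the setting of its upstream copy.
Nop2, chr6:125131633-125131882 (+): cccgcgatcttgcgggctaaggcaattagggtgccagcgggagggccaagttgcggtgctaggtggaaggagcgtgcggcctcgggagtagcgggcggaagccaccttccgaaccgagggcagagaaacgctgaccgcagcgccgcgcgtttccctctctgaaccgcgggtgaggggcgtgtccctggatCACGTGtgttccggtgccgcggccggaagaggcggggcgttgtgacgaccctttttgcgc

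The 3 subunits of RNA polymerase I did not pass. Polr1c, a subunit shared with RNA polymerase III, was the brightest of them, with log2 levels of 10.94, 11.63 and 12.06 on the CPC arrays and 9.99, 10.78 and 9.85 on the Ctl arrays. All its CPC arrays lay above all Ctl arrays, but the adjusted p of the difference of 1.33 ± 0.38 was 0.121. The other Polr1c probe set differed by 0.16 with overlapping arrays (adjusted p = 0.864, limma). Polr1b, the other large catalytic subunit, differed by 0.66, and Polr1a, the largest one, by −0.39. The 3 probe sets of Polr1a with a mean above background disagreed in sign, from −0.39 to 0.15.

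Of the box C/D particle, Nop56, one of its core scaffold proteins, rose. Its log2 levels were 13.33, 12.81 and 13.07 in CPC and 11.31, 11.63 and 11.46 in Ctl. The CPC arrays were thus all above the Ctl arrays, 1.60 ± 0.19 higher on average or 3.03-fold (adjusted p = 0.00768, limma). The call was lost with a trend and robust prior in limma (adjusted p = 0.0702) and without _s_at and _x_at probe sets, whose names mark probes that can match several transcripts, where the remaining probe set differed by 2.42 (adjusted p = 0.197). Its paralog Nop58 showed a larger mean difference, 2.25 ± 1.11, that did not pass (adjusted p = 0.307), with levels of 11.22, 10.49 and 7.75 in CPC and 8.21, 5.84 and 8.67 in Ctl. CPC 3 lay within the Ctl range there, and the value of Ctl 2 was at background. Rrp9, which binds the U3 small nucleolar RNA, differed by 0.63 with arrays that did not overlap (adjusted p = 0.109). The methyltransferase of the particle, fibrillarin, was read from probe sets shared by Fbl and LOC100044829. The first of them stood at 10.39, 10.37 and 6.69 in CPC and 7.56, 7.46 and 7.40 in Ctl, with CPC 3 below every Ctl array (adjusted p = 0.374).

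No gene of the box H/ACA group passed. Gar1, a core protein of the particle, had the highest mean level, with 11.25, 10.44 and 10.14 in CPC and 9.72, 10.18 and 10.12 in Ctl. Its groups overlapped, and the difference was 0.60 ± 0.32. Nop10, another core protein, had the smallest p of the group and the opposite sign: it stood at 11.07, 8.51 and 8.04 in CPC and at 11.32, 11.50 and 11.41 in Ctl. It was the 1 gene of the 37 with every CPC array below every Ctl array, a pattern of 11.0% of all genes, and its difference of −2.20 ± 0.77 had an adjusted p of 0.189. Without CPC 1 it passed as lower, at −3.13. Its other probe set overlapped between the groups, with 10.97, 8.57 and 9.98 in CPC and 10.12, 10.55 and 10.49 in Ctl, and differed by −0.55 (adjusted p = 0.587). Nhp2, the remaining small core protein, was high on 2 CPC arrays only, with 10.78, 7.22 and 10.26 against 7.66, 7.53 and 6.84. Dkc1, the pseudouridine synthase dyskerin, differed by 1.04 with overlapping arrays, and its 3 probe sets ran from −0.02 to 2.79. Nolc1, a chaperone of the particles, differed by 1.22 without overlap (adjusted p = 0.249), and its probe sets ran from −0.99 to 2.08.

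Among the nucleolar phosphoproteins, Ncl, which encodes nucleolin, was the brightest gene of the whole set. Its levels were 13.21, 13.16 and 13.22 in CPC and 12.33, 11.89 and 12.39 in Ctl. The CPC values were almost equal and all above Ctl, with a difference of 0.99 ± 0.19 or 1.99-fold (adjusted p = 0.0351, limma). That call was lost when any 1 array was left out, with adjusted p-values from 0.0651 to 0.113, and another Ncl probe set differed by −0.36. Mybbp1a, a nucleolar Myb-binding protein, differed by 0.92 without overlap (adjusted p = 0.154). Its dimmer probe set differed by 2.15 ± 0.46, also without overlap (adjusted p = 0.0575, limma). Npm1, the abundant chaperone nucleophosmin, was read from probe sets shared with LOC100046628, and both passed. The first stood at 12.71, 12.26 and 12.26 in CPC and 10.52, 10.36 and 10.54 in Ctl, a difference of 1.94 ± 0.19 (adjusted p = 0.00311), and the other differed by 1.74 ± 0.30 (adjusted p = 0.0258). The signal of Npm3, shared with Npm3-ps1, differed by 0.75 and did not pass (adjusted p = 0.269).

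For the small subunit, 2 of 7 genes rose (28.6%, against 1.15% of all genes). Wdr75, a WD-repeat protein of the processome, stood at 10.69, 9.85 and 10.04 in CPC and 8.03, 8.01 and 8.30 in Ctl, and its difference of 2.08 ± 0.26 (4.22-fold) had an adjusted p of 0.00798. Without limma's moderation of the variances the adjusted p was 0.0656 and the call was lost. Its other probe set differed by 0.37 and did not pass (adjusted p = 0.425). Tsr1, a factor of late small subunit maturation, showed the largest difference of the 37 genes, with 11.95, 12.18 and 13.54 in CPC and 9.95, 8.54 and 10.25 in Ctl. The groups did not overlap, but both spread widely, and the difference of 2.98 ± 0.60 (7.89-fold) reached an adjusted p of 0.0451. Leaving out any 1 array ended this call, with adjusted p-values from 0.0580 to 0.122, and its other probe set differed by 1.40 (adjusted p = 0.359). Nop14 and Wdr43, further processome proteins, and Utp20, which acts in precursor cleavage, differed by 1.10, 1.10 and 0.76 without passing. Rrp12, an export factor, differed by 1.41, but most of it lay on CPC 2, with 8.53, 11.86 and 7.84 on the CPC arrays. Nob1, the endonuclease that trims the small ribosomal RNA, differed by −0.61 and stood at 9.07 on Ctl 2 against 7.04 and 7.42 on the other Ctl arrays.

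**Figure D2:**
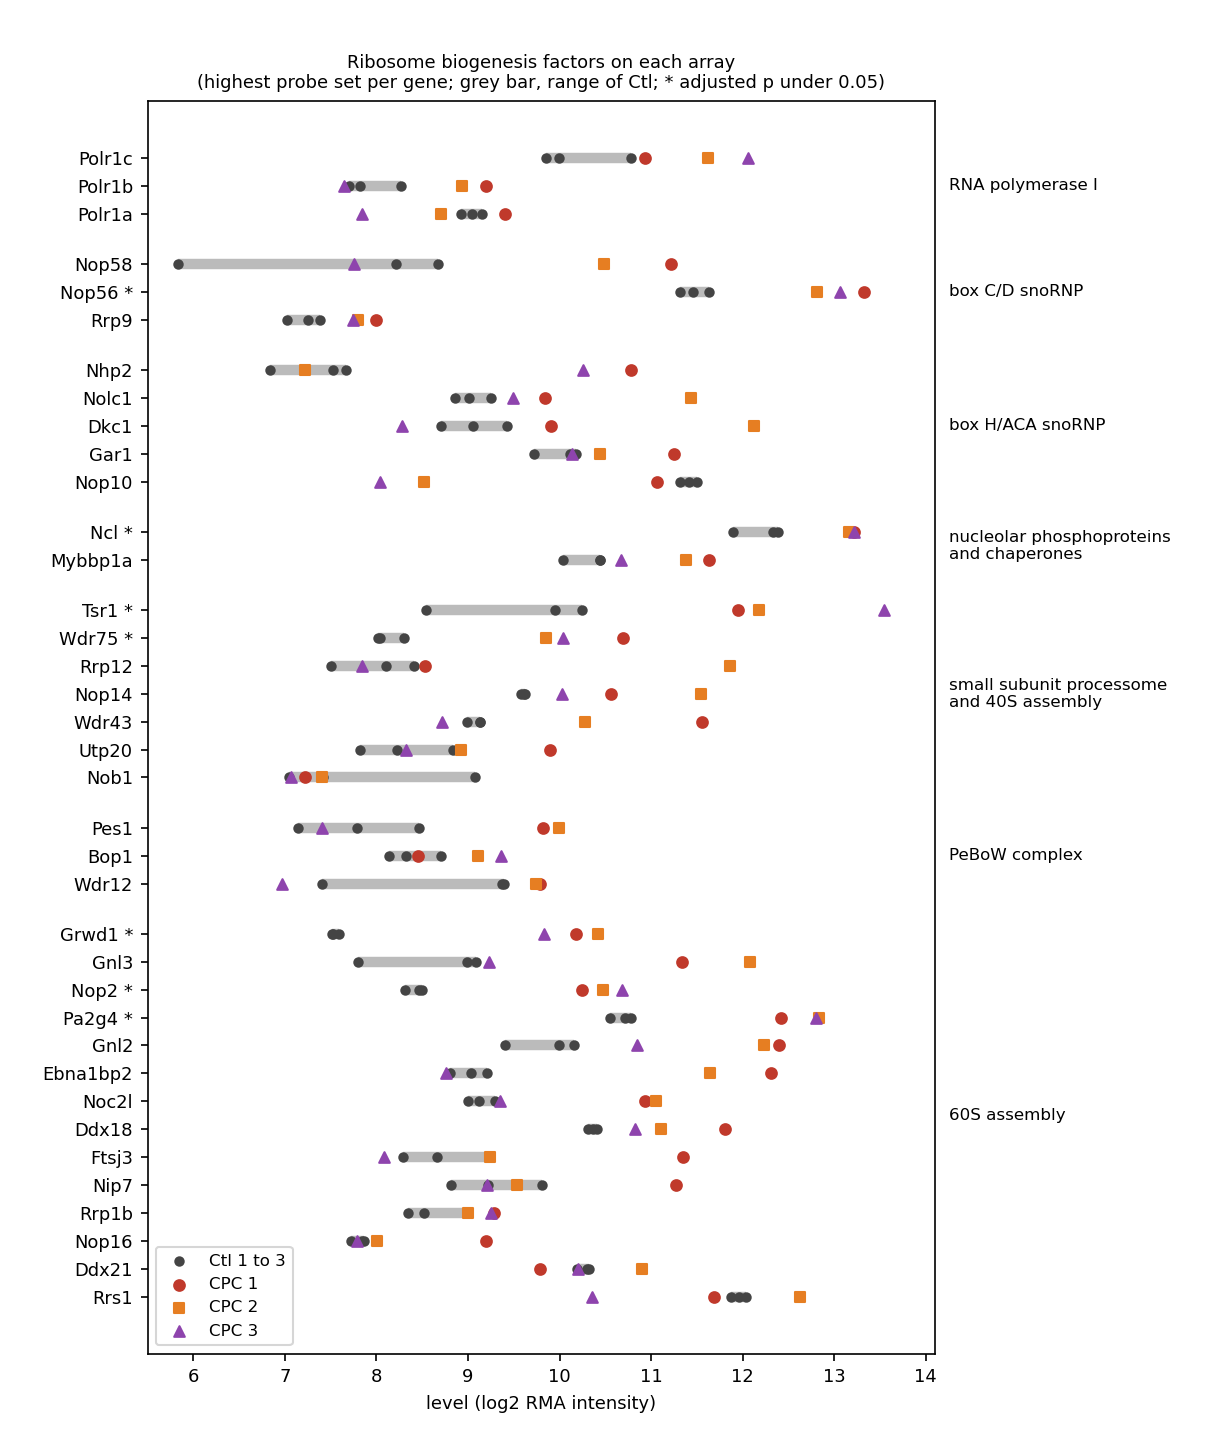
Log2 level of each of the 37 genes (rows, by role) on each of the 6 arrays, with a symbol for each CPC array, dark points for the Ctl arrays and a grey bar for their range; a star marks the 7 genes past the threshold. The median level of the 37 is 10.78, 10.47 and 9.35 on CPC arrays 1, 2 and 3 and 9.00 to 9.21 on the Ctl arrays.

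None of the PeBoW genes passed. Wdr12, which had the highest mean level of the trio, stood at 9.79, 9.74 and 6.97 in CPC and at 9.37, 7.41 and 9.40 in Ctl, a difference of 0.11 ± 0.93. Bop1 had the smallest p, with 8.46, 9.10 and 9.36 in CPC against 8.14, 8.71 and 8.32 in Ctl and a difference of 0.58 ± 0.29 (adjusted p = 0.307). Pes1, the third partner, differed by 1.27 ± 0.75, with 9.82 and 10.00 on CPC 1 and CPC 2 and 7.41 on CPC 3. In 2 of these 3 genes, CPC 3 was thus the low array.

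Of the 14 factors of the 60S subunit 3 rose (21.4%, against 1.15% of all genes), with a median difference of 1.10 over the 14. Grwd1, a WD-repeat protein that escorts the ribosomal protein Rpl3, had the smallest p of all, with 10.18, 10.43 and 9.83 in CPC and 7.51, 7.60 and 7.53 in Ctl. The difference was 2.60 ± 0.19, a 6.06-fold rise (adjusted p = 0.0012, limma), far larger than the spread in either group. That probe set carries the suffix for sequences that can match several transcripts, and another Grwd1 probe set without it differed by 0.51 ± 0.20 and did not pass (adjusted p = 0.228). Nop2, a methyltransferase of the large ribosomal RNA, stood at 10.25, 10.47 and 10.68 in CPC and at 8.49, 8.31 and 8.47 in Ctl. It was 2.04 ± 0.17 higher or 4.12-fold (adjusted p = 0.00198) and was measured by 1 probe set only. Pa2g4, an RNA-binding protein of the nucleolus also known as Ebp1, stood at 12.42, 12.84 and 12.80 in CPC and at 10.72, 10.55 and 10.78 in Ctl. Its difference of 2.00 ± 0.18 (4.01-fold) had an adjusted p of 0.00259 by limma. A further probe set of Pa2g4, whose _s_at suffix marks sequences that can match several transcripts, passed as well, at 1.93 ± 0.18. The other 3 of its 5 probe sets differed by 0.26, 1.57 and 1.66 and did not pass (adjusted p = 0.906, 0.445 and 0.0934), and over the mean of all 5 the call was lost (1.48, adjusted p = 0.0709).

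Gnl2, a nucleolar GTPase, came closest to the threshold among the other genes when each was read from its brightest probe set. Its brightest probe set stood at 12.40, 12.23 and 10.84 in CPC and at 10.00, 9.41 and 10.16 in Ctl (1.97 ± 0.46, adjusted p = 0.0727). A dimmer one passed, with 11.17, 11.27 and 11.65 against 8.57, 7.67 and 8.72 and a difference of 3.05 ± 0.32 (adjusted p = 0.00434). CPC 3 was thus the lowest CPC array in one and the highest in the other. Its dimmest probe set had the opposite sign, at −0.06 (adjusted p = 0.862). Gnl3, the related GTPase nucleostemin, stood at 11.34, 12.08 and 9.23 in CPC and at 8.99, 7.80 and 9.09 in Ctl (2.26 ± 0.78, adjusted p = 0.183).

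Ebna1bp2, a scaffold protein of early 60S particles, was high on CPC 1 and CPC 2 alone, at 12.31 and 11.64 against 8.77 on CPC 3 and 8.80 to 9.21 in Ctl. The brightest gene of the group, Rrs1, which helps to load the 5S particle, stood at 11.69, 12.62 and 10.36 in CPC and at 11.96, 11.87 and 12.04 in Ctl. The CPC arrays surrounded the tight Ctl arrays there, and the difference was −0.40 ± 0.55. The helicase Ddx21 differed by 0.03 on its brightest probe set. Its other one stood at 10.65, 10.69 and 8.35 in CPC and at 8.06, 8.27 and 8.18 in Ctl, without overlap, and differed by 1.73 ± 0.64 (adjusted p = 0.209). Its relative Ddx18 differed by 0.88 (adjusted p = 0.148). The remaining 60S factors of the set, Nop16, Nip7, Noc2l, Ftsj3 and Rrp1b, differed by 0.52 to 1.31 without passing. The probe sets of Nip7 and Noc2l disagreed in sign, as did those of Pes1. For Nip7 the brightest differed by 0.73 ± 0.58 (adjusted p = 0.480, limma). Its other probe set had every CPC array below every Ctl array and differed by −0.76 ± 0.16 (adjusted p = 0.0551, limma).

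Most of the variation lay among the CPC arrays. The median range of a nucleolar factor was 1.56 over the 3 CPC arrays and 0.46 over the 3 Ctl arrays, beside 0.61 and 0.35 for all genes, and the CPC range was the wider one for 32 of the 37 (86.5%, against 74.7% of all genes). Array by array, 32 of the 37 genes were above every Ctl array on CPC 1 (86.5%, against 36.1% of all genes) and 31 on CPC 2 (83.8%, against 47.6%), but 19 on CPC 3 (51.4%, against 59.2%). The median over the genes, taken from the Ctl mean, was 1.39, 1.08 and 0.22 on the 3 CPC arrays, where the genes of the same range of level had medians of 0.04, 0.09 and 0.21. On CPC 3 the median of the nucleolar factors was therefore close to that of genes of their level. The single genes were spread there, with 51.4% above and 24.3% below every Ctl array, against 59.2% and 21.7% of all genes. These shares describe single arrays and carry no test.

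**Figure D3:**
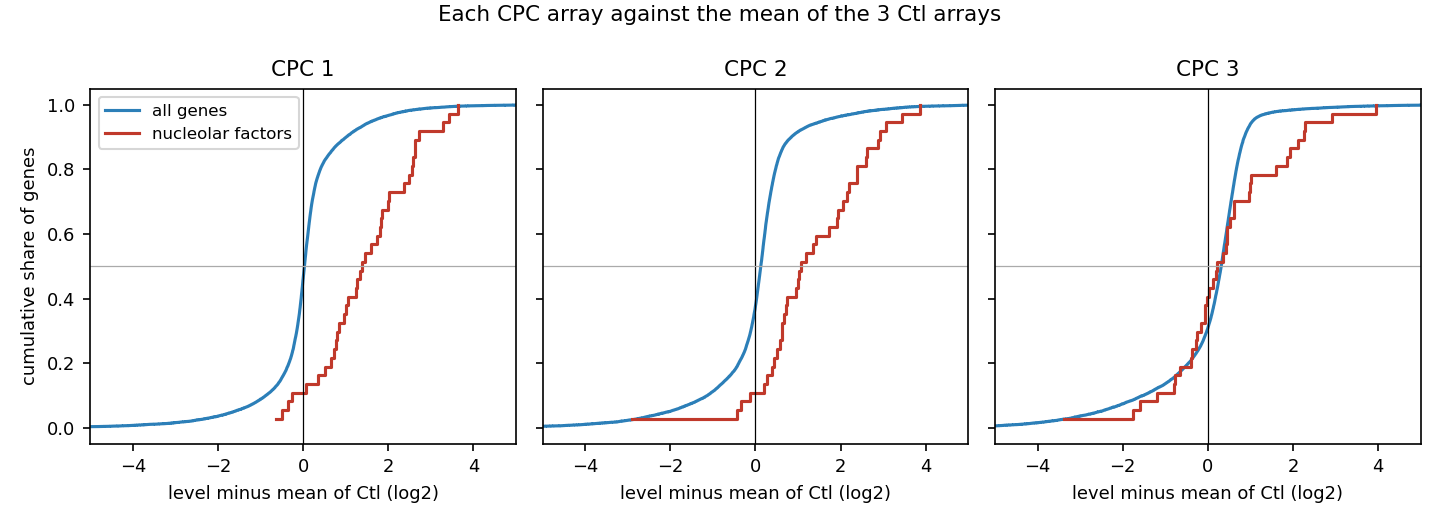
Cumulative share of the 37 genes (red) and of all genes (blue) by their log2 level on each CPC array minus the mean of the 3 Ctl arrays. The 37 lie at a median of 1.39 on CPC 1, 1.08 on CPC 2 and 0.22 on CPC 3, and all genes at 0.03, 0.12 and 0.32.

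In 16 of the 37 genes all CPC arrays lay above all Ctl arrays (43.2%, against 21.9% of all genes), and in 12 CPC 1 and CPC 2 did but CPC 3 did not (32.4%, against 4.15% of all genes). CPC 3 was the lowest CPC array for 26 genes and the highest for 5, and it lay below every Ctl array for 9 (24.3%, against 21.7% of all genes). CPC 1 did so for 3 (8.11%, against 27.9%) and CPC 2 for 2 (5.41%, against 24.3%). Tsr1, by contrast, was highest on CPC 3, and Nop2 as well. The Gapdh control probe sets differed between the 3′ and the 5′ end by 3.53 on CPC 3, against 2.09 and 2.55 on the other CPC arrays and 1.77 to 2.21 in Ctl, and those of Actb by 0.37 on CPC 3, against 0.00 and 0.05 on the other CPC arrays and −0.85 to −0.41 in Ctl. A larger value is a greater loss of signal toward the 5′ end, and its part in the pattern of CPC 3 was not tested.

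How low CPC 3 stood depended on the probe set. The 37 genes had 79 probe sets, of which 9 passed as higher and none as lower by limma. Their median difference was 0.73, beside 0.15 for all probe sets. The 79 include the 37 brightest ones reported above. Of the other 42, 2 passed as higher (4.76%), and their median difference was 0.24. Across all probe sets of the array, 1.06% rose and 4.38% fell. At an unadjusted p below 0.05, 27 of the 79 were higher (34.2%, against 9.69% of all probe sets) and 2 were lower (against 10.7%). In 30 of the 79 (38.0%) all CPC arrays lay above all Ctl arrays, against 19.7% of all probe sets. Of 24 genes with several probe sets above background, 8 had probe sets of opposite sign, and in 7 some passed but not all. The offset of CPC 3 from the mean of CPC 1 and CPC 2 ran from −4.17 to 1.45 among the probe sets of Pa2g4, from −3.97 to 0.98 in Nolc1 and from −2.74 to 1.73 in Dkc1. In Nop56 it was 0.00 for the probe set that passed and −3.13 for the other one, which stood at 11.64, 11.83 and 8.61 in CPC and 7.89, 8.36 and 8.57 in Ctl. The low level on CPC 3 was thus not shared by all probe sets of these genes.

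**Figure D4:**
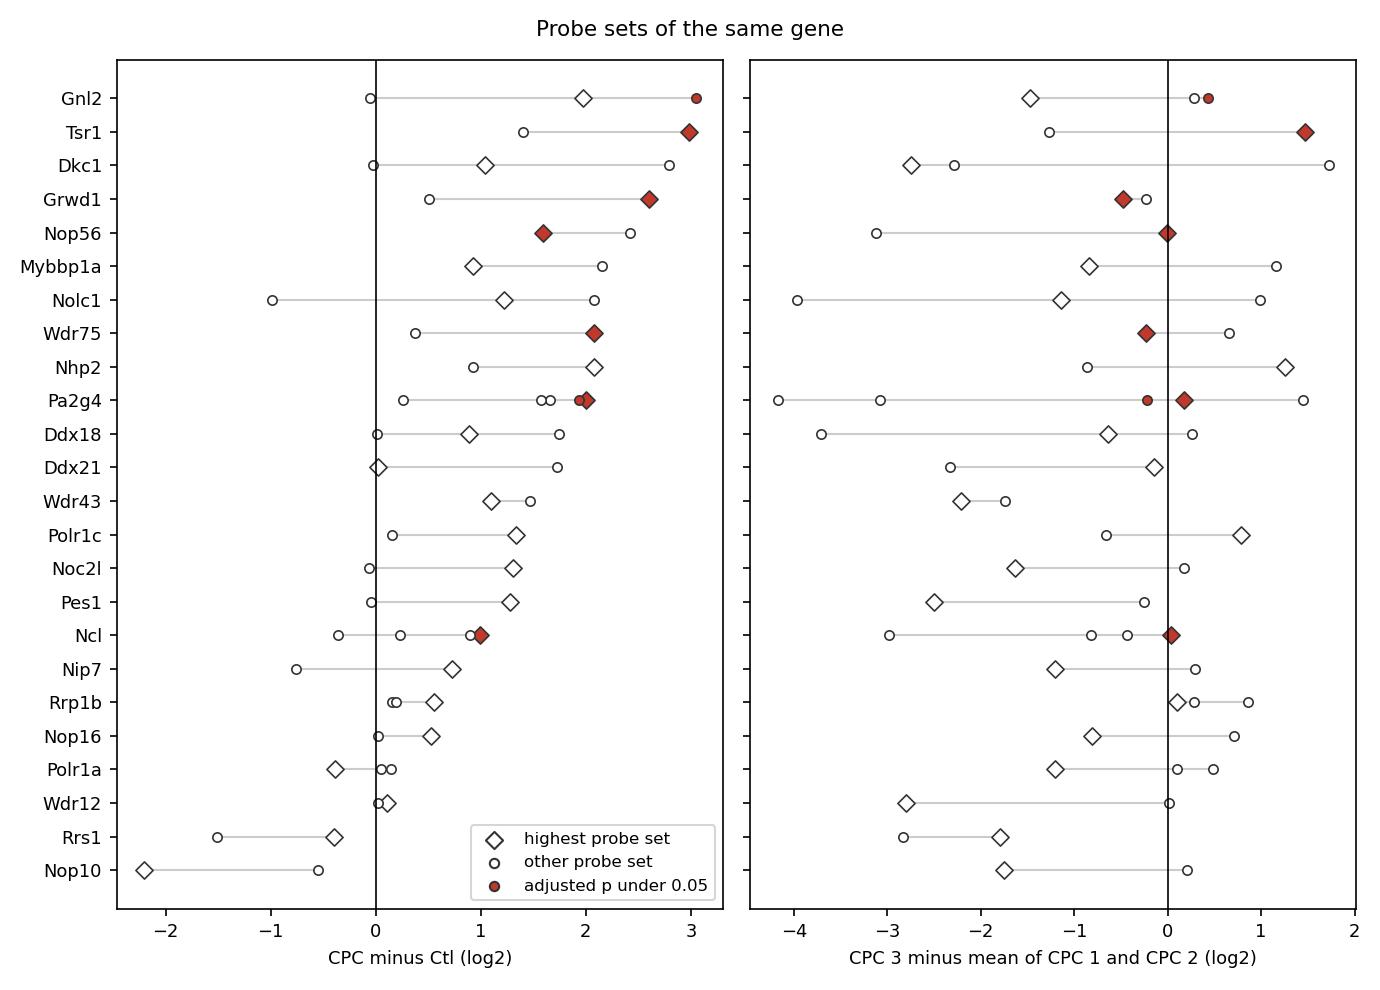
Probe sets of the 24 genes with several above background: the log2 difference (CPC minus Ctl, left) and the offset of CPC 3 from the mean of CPC 1 and CPC 2 (right), with a diamond for the brightest probe set and red for an adjusted p under 0.05. Differences within a gene spread by up to 3.11 (Gnl2), and offsets by up to 5.63 (Pa2g4).

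Of the other genes of ribosome biogenesis 103 of 105 listed were measured, with a median difference of 0.61. Of these 4 rose (3.88%, against 1.15% of all genes) and 1 fell (0.971%, against 4.47%), and the CPC mean was higher for 88 (85.4%, against 68.1%). No test was made between these genes and the 37. Tex10, which acts with a complex that releases 60S particles from the nucleolus, stood at 9.48, 9.49 and 10.90 in CPC and was below background on all Ctl arrays, at 5.57, 5.13 and 4.98. Against the background level it was at least 10.6-fold higher (adjusted p = 0.00257). That probe set, the brighter of 2 for Tex10, carries the _s_at suffix for sequences that can match several transcripts. Cirh1a, the processome protein also called Utp4, was 3.26 ± 0.52 higher (adjusted p = 0.0202), with 9.61, 11.75 and 10.64 against 7.25 to 7.59. The 60S factors Ppan and Brix1 rose by 1.87 ± 0.38 (adjusted p = 0.0476) and 1.66 ± 0.34 (adjusted p = 0.049). Utp6, a processome protein, fell by 0.88 ± 0.18 (adjusted p = 0.0472), from 10.29, 10.15 and 9.91 in Ctl to 9.41, 9.07 and 9.23 in CPC. By step, 0 of 13 RNA polymerase I factors passed, 1 of 38 small subunit factors rose and 1 fell, 3 of 41 large subunit factors rose, and 0 of 11 exosome genes passed. At an unadjusted p below 0.05, where 11.0% of all genes were higher, 2 of the 13 RNA polymerase I factors (15.4%) and 3 of the 11 exosome genes (27.3%) were higher. So were 11 of the 38 small subunit factors (28.9%) and 11 of the 41 large subunit factors (26.8%). Of the 10 genes of the Myc network only Myc passed.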

How the data were processed

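RNA of 6 mouse samples was measured on 6 arrays, 3 CPC and 3 Ctl, 1 array a sample. The authors deposited log2 values, for which the submitters' notes name RMA, which corrects background, normalizes by quantiles and summarizes each probe set, and Partek, both without versions. The authors also deposited their own comparison as a signed fold change (a score that is never between −1 and 1), a p-value and a step-up p-value. Those columns were not used, only the gene annotation beside them. No detection calls came with the values.

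Of 45101 probe sets, 64 controls were left out and 45037 were tested by limma 3.58.1 under R 4.3.3 (moderated linear model, CPC against Ctl, two-sided, all 6 arrays, no covariate), with Benjamini-Hochberg adjustment over all of them and a threshold of 0.05. Values were used as deposited. A gene was read from the probe set with the highest mean among the 38016 that named 1 gene, which gave 20679 genes. Genes absent under their present symbol were looked up through the gene identifier, which gave Utp11, Nop9 and Adgre1. Values after ± are standard errors of the fit with n = 3 and 3. Precision is limited by the number of arrays. An exact permutation test of 3 against 3 cannot go below 0.1. The fit was tested on simulated data.

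All values are given for the genes that passed, for the brightest gene of each role and for the gene with the smallest p of a role in which none passed, and further genes were added after their values were seen. The genes and lists were chosen with earlier results of these data known. The alternatives were centred arrays, bright probe sets only, the mean of the probe sets of a gene, no _s_at or _x_at probe sets, a trend and robust prior, array weights, a replicate block, each array left out, no moderation, a stricter threshold and a minimum difference. Promoters were RefSeq (GRCm38.p6). Protein features were not analysed here.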

Additional observations from a re-analysis of the deposited data

How the results depend on the processing

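None of the 7 genes that had passed turned its direction under the alternatives run. The 7 rises became 4 of 35 genes without _s_at and _x_at probe sets (Grwd1 and Nop56 lost, while both Tsr1 probe sets are _s_at, so it was not tested), 4 with a trend and robust prior (Ncl, Nop56 and Tsr1 lost), 4 without moderation (Ncl, Tsr1 and Wdr75 lost), 5 at 0.01 and 6 with a log2 difference over 1. Over all genes, the 237 rises became 205, 165, 74, 90 and 218 under these settings in turn, and 229 with centred arrays. The mean of all probe sets kept 5 of the 7, lost Ncl and Pa2g4 and gained Gnl2 and Mybbp1a, beside 300 rises over all genes. A weight per array gave 25 rises and 1 fall, beside 4686 and 2894 over all genes, with a weight of 5.92 on CPC 2 and of 0.32 and 0.23 on CPC 1 and CPC 3, so that CPC 2 carried most of the CPC mean. With each array left out, 5 to 10 rose and 0 to 1 fell (Nop10, without CPC 1), and the median ran from 0.85 to 1.44. Without CPC 3 the 10 included Ebna1bp2, Gnl2, Gnl3, Mybbp1a and Noc2l, and the rises over all genes went from 237 to 529. Without a Ctl array they were 94 to 147. Nop2 passed under all 14 alternatives of the fit. The other ribosome biogenesis genes, 4 higher and 1 lower, gave 2 higher with centred arrays, and 6 higher and 0 lower with the mean of the probe sets. They gave 2 and 0 with the trend, 44 and 5 with array weights, 1 and 0 without moderation, 1 and 0 at 0.01, 0 lower with the minimum difference, and 1 to 16 higher (16 without CPC 3) and 0 to 1 lower with arrays left out. Replicate numbers showed no pairing of the arrays (correlations of deviations −0.05, −0.01 and −0.11, and 0 CPC arrays correlated best with their own number). The labels do not give the animals, so whether arrays shared a source was not tested. The replicate block left 5 rises, without Ncl and Nop56, and 2 and 0 for the other genes, beside 131 rises over all genes. The causes were not tested.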
